A study of Drosophila melanogaster with 8 samples.

Results

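Wild-type (WT) Drosophila melanogaster embryos of 1 to 1.5 h were compared with WT embryos of 2.5 to 3 h, to describe how accessible chromatin differs across the onset of zygotic transcription. The members are 4 of the 8 ATAC-seq libraries of the study, 2 from each window, and the 33221 regions formed by merging their peaks wherever these overlapped by at least 1 bp. All 8 libraries together gave 38545 regions. A region with a peak in both early libraries and in neither late library was called lost, one with the opposite pattern gained, and one with a peak in all 4 libraries kept.

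ATAC-seq uses a transposase that inserts adapters into accessible DNA, so a peak marks a stretch that was cut often. Whole embryos were dechorionated and their nuclei collected, and the study also holds 2 mutant libraries in each window. The subject of the study is IntS11, which cuts RNA as the endonuclease of the Integrator complex, and the title of every library, WT included, contains the words IntS11 and mislocalized. Placing the mislocalization in the mutant is therefore an inference. No strain, allele, driver or number of embryos is given for any group. The labels do not say whether the 2 libraries of a group came from separate collections, so the spread between them may be technical. Each p-value here compares a difference with rearrangements of the same few libraries. Where 2 windows do not overlap, the number of arrangements sets it, and it does not measure that spread.

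The newly laid fly egg divides by rapid nuclear cycles that run on maternal RNA and protein, and most of its genome is silent. Transcription begins at a small set of short early genes and spreads widely when the nuclear cycles lengthen and the embryo cellularizes. The maternally supplied factor Zelda (gene zld) opens chromatin at many early enhancers and promoters, and GAGA factor (gene Trl) and Clamp bind and open other sites. Gap, pair-rule, segment polarity and dorsoventral genes then divide the embryo into segments and germ layers.

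The late libraries held fewer and wider peaks that covered about the same length of the genome. There were 25201 and 23815 peaks in the early libraries and 19002 and 18440 in the late ones, means of 24508 ± 980 and 18721 ± 397 (SD, n = 2). The median peak width was 280 and 272 bp early and 365 and 364 bp late. The windows did not overlap in either value, and the exact two-sided permutation test gave p = 0.333 for each, the smallest that 2 against 2 libraries allow (adjusted p = 0.5 over 6 tests). Covered length was 8913 and 8189 kb early and 8714 and 8376 kb late. These values overlapped (exact permutation p = 1, adjusted p = 1). The late value was higher by 699 kb when peaks under 200 bp were left out, and by 356 kb without early library 1. The other 2 differences kept their direction but were smaller in alternative lists. The late minus early number of peaks was -5787 as deposited, -1026.5 with peaks of at least 200 bp and -1792.5 with common limits of 160 bp. In median width it was 88.5 bp as deposited, and 49.5 and 48 bp in these 2 alternatives. With the 18440 widest peaks of every library it was 28.5 bp.

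The difference lay at both ends of the range of widths. Peaks under 200 bp numbered 7309 and 7191 early and 2541 and 2438 late, while peaks of 1000 bp or more numbered 640 and 547 early and 1194 and 1106 late. The longest peak of each library was 2278 and 2586 bp early and 3577 and 3636 bp late. The lists were not made alike. The shortest peak was 122 and 120 bp early and 156 and 154 bp late, and in each library the smallest gap between peaks was 1 bp longer than its shortest peak. Depth is unknown, since the lists hold no more than positions, and the absence of a peak does not show closed chromatin. The part of depth and of these limits in the results was not tested beyond the alternative lists given beside them.

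**Figure D1:**
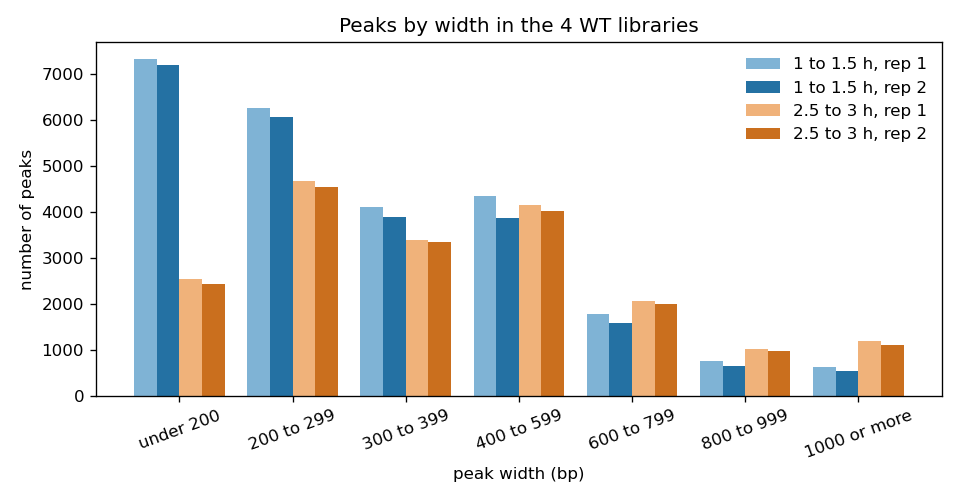
Number of peaks in each of the 4 WT libraries (y axis) by peak width in bp (x axis), with 1 bar for each library. The early libraries hold 7309 and 7191 peaks under 200 bp and the late libraries 2541 and 2438, while the order is the opposite for peaks of 1000 bp or more.

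Libraries of one window shared more covered length than libraries of different windows. The Jaccard index, the ratio of the length covered in both libraries to the length covered in either, was 0.547 between the early libraries and 0.693 between the late ones. It was 0.425 to 0.432 between windows.

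Of the 33221 regions, 4330 were lost (13.0%), 2338 were gained (7.04%) and 11177 were kept (33.6%), and the other 15376 had a mixed pattern. Lost regions were 25.1% of those that both early libraries called, and gained regions were 15.1% of those that both late libraries called. Which class was larger depended on the lists. With peaks of at least 200 bp there were 2531 lost and 2831 gained regions, and with the 18440 widest peaks of every library there were 2493 and 3539. With common limits of 160 bp the counts were 3098 and 2978. Without early library 1 or early library 2 the lost regions numbered 8091 and 9008, because the rule then asks for fewer libraries. Without late library 1 or late library 2 the gained regions numbered 3623 and 3922.

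Kept regions lay at gene ends more often than the others did. A gene end here is the 250 bp on either side of the lower or upper limit of an annotated gene, so it includes promoters and 3′ ends, which the reference does not separate. Gene ends held 44.4% of kept, 22.5% of gained and 19.1% of lost regions, against 26.9% of all regions. Stretches inside genes away from the ends held 69.9% of the lost regions, 58.9% of the gained and 44.0% of the kept ones, against 60.6% of all regions. Stretches between genes held 18.5% of gained, 10.99% of lost and 11.7% of kept regions, against 12.5% of all. On the X chromosome lay 15.4% of the lost, 17.8% of the gained and 16.1% of the kept ones, all near the 16.4% of all regions. A kept region lay within 1000 bp of 26.9% of lost and 27.2% of gained regions.

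The share of all peaks that touched a gene end was 27.4% and 27.7% early and 33.9% and 34.5% late. These windows did not overlap (exact permutation p = 0.333, the smallest allowed, adjusted p = 0.5). The late mean was higher by 6.72 points as deposited, 5.35 with peaks of at least 200 bp and 5.03 with common limits of 160 bp. It was higher by 4.09 points with the 18440 widest peaks of every library and by 3.82 with a gene-end window of 500 bp. The number of genes with such a peak was 8054 and 7734 early and 8087 and 7965 late, which overlapped (exact permutation p = 0.667, adjusted p = 0.8). Without early library 2 the late number was lower by 28 genes. A wider peak reaches a gene-end window more easily, and late peaks were wider. Among regions called in both early libraries, gene ends held 1097 of the 4312 narrowest and 2269 of the 4312 widest. The part of width in the share of peaks at gene ends was not tested, nor was its part in the share of kept regions there.

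Narrow regions were lost or gained at higher rates than wide ones. Among regions called in both early libraries, split into 4 equal classes by early width, 43.9% of the narrowest class were lost and 8.02% of the widest. Among regions called in both late libraries, split in the same way by late width, 32.99% of the narrowest class were gained and 1.73% of the widest. The same order held within places. In the widest early class 3.79% of regions at gene ends, 14.2% of those inside genes and 2.30% of those between genes were lost. The median of the mean widths was 254.25 bp for lost and 272.5 bp for gained regions, and kept regions had 391.5 bp early and 479 bp late.

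The widest gained regions included gene ends of RpS7, eIF2Balpha and ND-15 and a stretch near hb. The widest covered a gene end of RpS7 (dm6, 3R, 30206388 to 30207606), with peaks of 1172 and 1047 bp late and none early. RpS7 is a ribosomal protein gene that hosts several snoRNAs. Elsewhere at its gene ends it had early peaks of 981 and 1040 bp, so by gene-end peaks RpS7 was kept. The next gained regions lay at CG42557 and eIF2Balpha, a translation initiation factor subunit (975 and 1000 bp), and inside Ncc69, a cation-chloride cotransporter gene (1282 and 552 bp). Another lay 2731 bp from hb (3R, 8700553 to 8701511, 864 and 954 bp). The hb gene encodes the gap factor Hunchback. The others were at SmD3 and mir-281, ND-15 and Pus10, ppk24, CG17129 with CG3386 and Shal, a potassium channel gene, and inside tay.

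The widest lost regions lay inside genes, with 1 exception. The widest (3R, 7897946 to 7899582) lay where mRpS9 and wtrw overlap and had peaks of 1637 and 857 bp early. A region inside dve, which encodes a homeodomain factor (2R, 22283485 to 22284884), had peaks of 1139 and 1279 bp, and one inside rho-5 had 1629 and 663 bp. Others lay in CG43980, kek5, CG46467 with Glut4EF, CG15385, L and pot. The exception touched a gene end, that of CG2104 within plx.

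Among genes, Myo81F held 11 gained regions in its span, CG32816 and Ten-a 10 each, Sdc and Ten-m 9 each and hth 8. Ten-a and Ten-m encode teneurins, Sdc the proteoglycan syndecan, and hth a homeodomain cofactor of Hox proteins. Peaks within 2000 bp of the hth span covered 15401 and 14738 bp early and 18638 and 19643 bp late. Most lost regions lay in pum (11), Tet (9), jing, dpy and sick (8 each) and rdx (7). The gene pum encodes a translational repressor of maternal RNA, and its peaks covered 10601 and 9368 bp early and 7004 and 7347 bp late. These are long genes, with spans from 65.0 kb for rdx to 1966 kb for Myo81F, and counts of regions grow with length.

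Kept regions were wider late more often than narrower. Peaks in 5614 of the 11177 kept regions (50.2%) were wider in both late libraries than in both early ones, and in 1600 (14.3%) narrower in both. The median log2 ratio of late to early mean width was 0.21. At least a 2-fold difference was found in 1394 wider and 218 narrower regions. The narrower regions numbered 2495, 2872, 2787 and 2728 when early library 1, early library 2, late library 1 or late library 2 was left out, because the rule then compares fewer libraries.

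Some kept regions had several peaks early and a single peak late. In 548 kept regions (4.90%) both early libraries had more than 1 peak and both late libraries had 1, and the reverse was found in 24 (0.215%). With common limits of 160 bp, which bridge the same gaps in every library, 303 kept regions (2.98%) were joined late and 36 (0.354%) split. Among the 9073 kept regions with 1 peak in each library, 48.2% were wider late and 15.7% narrower. These counts were added after the data were seen.

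The 10 kept regions with the largest rise in width had early peaks under 250 bp and late peaks over 1 kb, except that inside mask late library 2 had 647 bp. At ND-19 and CG4806 (2R, 24664832 to 24666458) the widths were 190 and 149 bp early and 1598 and 1627 bp late. ND-19 encodes a subunit of respiratory complex I. At Su(z)12, which encodes a Polycomb repressive complex subunit, and Pfdn6 they were 244 and 204 bp early and 1823 and 1904 bp late. Inside ptc, the Hedgehog receptor gene, they were 186 and 151 bp early and 1216 and 1270 bp late. The others were in lncRNA:CR44833, at xit with Atx-1, at CG4440, inside mask, inside Dscam1, at hll and inside XNP, which encodes a chromatin remodeler.

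Of the 10 largest falls in width 9 lay inside genes away from their ends. Inside CG13868 the widths were 1623 and 1162 bp early and 205 and 216 bp late, and inside Smr, a corepressor gene, they were 1117 and 1056 bp early and 204 and 159 bp late. Inside ft, which encodes a giant cadherin, they were 1261 and 810 bp early and 156 and 215 bp late. The others were in CG9801, CG7907, CG43759, stau, Mid1 and gpp, and at a gene end of CG14642.

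By gene-end peaks, 614 of 17807 genes were lost (3.45%), 719 were gained (4.04%) and 5926 were kept (33.3%). Of the kept genes, 3296 had a wider gene-end peak in both late libraries (55.6%) and 655 a narrower one (11.1%). Gained genes were of more than 1 kind. For 458 of the 719 (63.7%) the gene-end peak lay in a gained region, and for 194 (26.98%) it lay only in a kept region whose late peaks reached further. Of the 614 lost genes, 540 (87.9%) had a lost region. No peak of the other window lay within 2000 bp of the span of 69 gained and 197 lost genes. With peaks of at least 200 bp 365 genes were lost, with equal list lengths 349 were lost and 1125 gained, and with a window of 500 bp 953 were lost and 466 gained. Without early library 1 and without early library 2, 1015 and 1172 genes were lost, and without early library 1 1190 were gained.

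**Figure D2:**
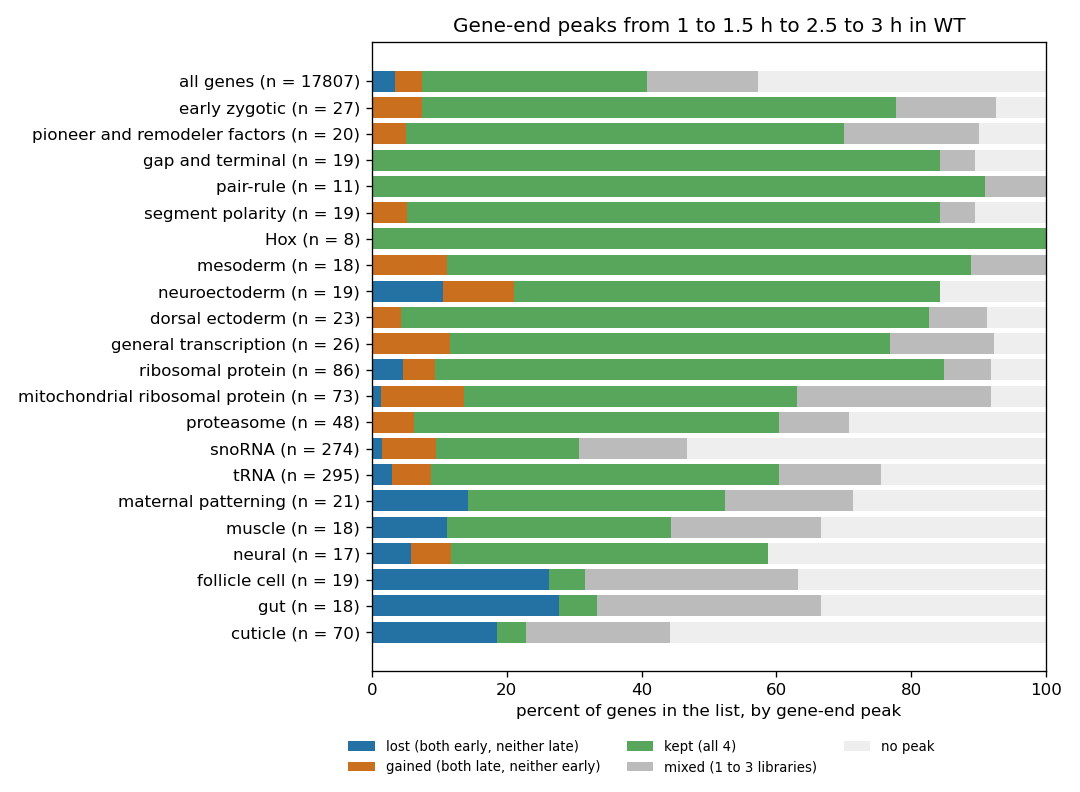
Percent of genes (x axis) that were lost, gained, kept, mixed or without a peak by gene-end peak, for all genes and 21 of the 30 gene lists (y axis, with the number of genes). The gap and terminal, pair-rule, segment polarity, Hox, mesoderm, neuroectoderm and dorsal ectoderm lists are mostly kept. The maternal patterning list is 38.1% kept, near the 33.3% of all genes. Lost genes take the largest shares in the gut (27.8%), follicle cell (26.3%) and cuticle (18.6%) lists.

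Genes of the first wave of zygotic transcription had gene-end peaks in both windows in most cases. Of 27 early zygotic genes 19 were kept, 2 were gained and none was lost, against 33.3%, 4.04% and 3.45% of all genes. Among the 19 kept genes 13 were wider late and 3 narrower, against 55.6% and 11.1% of all kept genes. The gained genes were Bro, which encodes the partner of the Runt family of transcription factors (3L, 1647869 to 1648612), with peaks of 269 and 262 bp late, and term, with 443 and 397 bp late. No early peak lay within 2000 bp of term.

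Several kept genes of this list had much wider late peaks. Peaks at halo, which acts in lipid droplet transport, were 752 and 730 bp early and 1306 and 1281 bp late. Those at zen, a homeobox gene of the dorsal side, were 619 and 749 bp early and 1644 and 1696 bp late. Those at Z600, a mitotic inhibitor gene, were 348 and 317 bp early and 932 and 1192 bp late. At each of these genes both late peaks were wider than both early ones.

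Peaks at CG13427 were 645 and 594 bp early and 1112 and 1085 bp late. Elba2, an insulator gene, had 822 and 266 bp early and 1355 and 1315 bp late, and esg, a zinc finger factor gene, had 523 and 513 bp early and 676 and 1033 bp late. The narrower ones were bib, amos and E(spl)m4-BFM. The gene slam acts in furrow growth at cellularization and was picked after its values were seen. At its gene ends early library 1 had a peak of 604 bp and early library 2 none. The late peaks of 3577 and 3636 bp were the longest of their libraries. Early peaks lay near slam too, since peaks within 2000 bp of its span covered 2831 and 2647 bp early and 3577 and 3636 bp late. Sxl, the sex determination switch, had widths of 291 and 293 bp early and 419 and 425 bp late. sisA, an X-linked signal of that switch, had 1250 and 800 bp early and 1410 and 1392 bp late.

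Of 11 pair-rule genes, which set alternate segments, 10 were kept (90.9%, against 33.3% of all genes). Of these 10 genes 7 were wider late and none narrower, against 55.6% wider and 11.1% narrower among all kept genes. The wider ones were odd, ftz, opa, eve, slp1, prd and hry, while at slp2, ftz-f1 and Ten-m the widths overlapped between windows. Peaks at ftz (3R, 6864324 to 6866244) were 1021 and 1017 bp early and 2205 and 2212 bp late. Each early library had 2 peaks at ftz, and each late library had a single peak spanning both. Peaks at odd were 963 and 921 bp early and 2203 and 2225 bp late. At opa they were 681 and 676 bp early and 1488 and 1559 bp late, and at eve 653 and 1085 bp early and 1648 and 1606 bp late. At slp1 they were 1027 and 839 bp early and 1519 and 1495 bp late. Only run was not kept by gene-end peaks, with 1 such peak of 159 bp in early library 2. Its span held 2 kept regions, and peaks within 2000 bp of the span covered 2054 and 1793 bp early and 2645 and 2654 bp late. Over the pair-rule list such coverage was higher in both late libraries at 9 genes and lower at 2. Of all genes 26.0% had more covered bp late and 24.2% fewer.

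**Figure D3:**
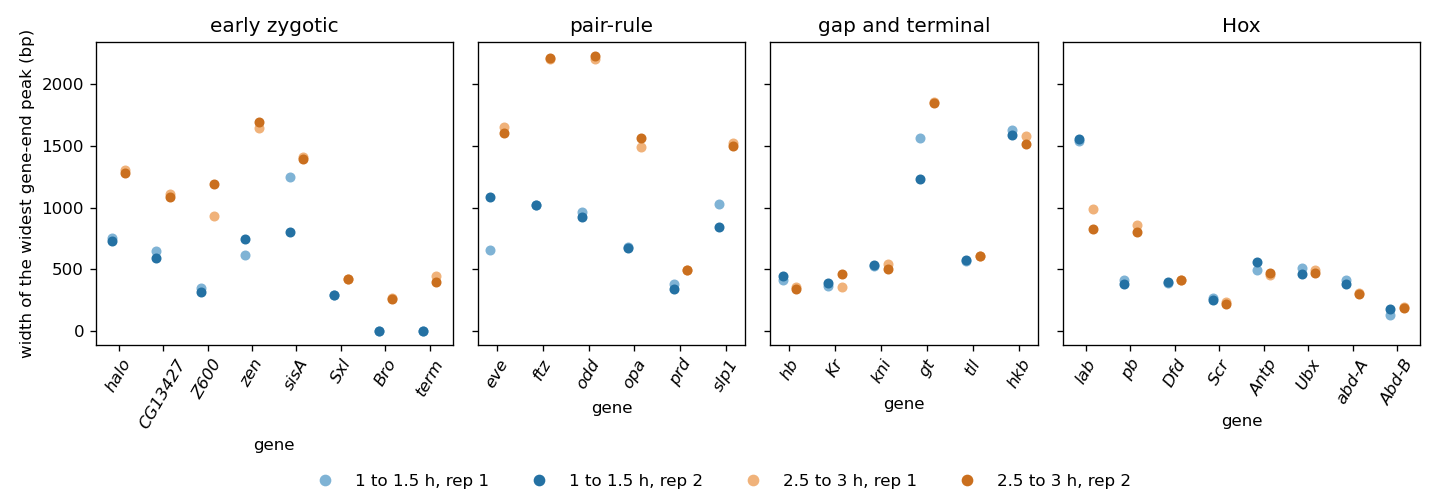
Width in bp of the widest gene-end peak (y axis) for genes of 4 lists (x axis), with 1 point for each WT library and a value of 0 where none was called. The genes shown were picked after the data were seen. Late points lie above early points at zen, eve, ftz, odd and opa, and below them at hb and lab.

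Gap and terminal genes, which read the maternal gradients, were kept in 16 of 19 cases (84.2%, against 33.3% of all genes). None was lost or gained, where 3.45% and 4.04% of all genes were. Of the 16 kept genes 7 were wider late and 2 narrower, against 55.6% and 11.1% of all kept genes. The peak at hb was narrower late, at 417 and 443 bp early and 357 and 340 bp late, while a region 2731 bp from the gene was gained as described above. Within 2000 bp of the hb span peaks covered 2946 and 3078 bp early and 3941 and 3818 bp late. In this list such coverage was higher in both late libraries at 12 genes and lower at 2, where 26.0% of all genes had more and 24.2% fewer covered bp. Peaks at gt were 1566 and 1229 bp early and 1856 and 1846 bp late. Those at Kr (367 and 387 bp early, 356 and 461 bp late) overlapped between windows.

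All 8 Hox genes, which specify segment identity, were kept, against 33.3% of all genes. Of these, 3 were wider late and 4 narrower, against 55.6% and 11.1% of all kept genes. The peak at lab was 1542 and 1553 bp early and 985 and 822 bp late, and that at pb was 415 and 379 bp early and 857 and 805 bp late. At Antp the widths were 496 and 556 bp early and 451 and 468 bp late, and at abd-A 412 and 383 bp early and 307 and 303 bp late. Coverage within 2000 bp of the gene spans did not always follow these widths. It was higher in both late libraries at 4 of the 8 genes, among them Antp and abd-A, and lower at 2, among them pb. Of all genes 26.0% had more covered bp late and 24.2% fewer.

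Of 19 segment polarity genes 15 were kept (78.95%, against 33.3% of all genes), 8 wider and 2 narrower. Among all kept genes 55.6% were wider and 11.1% narrower. The gained share was 5.26%, near the 4.04% of all genes. The gained gene was arm, which encodes beta-catenin, with 515 and 511 bp late. The gene-end peak of ptc was 492 and 486 bp early and 1135 and 1083 bp late. That of en, which encodes the homeodomain factor Engrailed, was 1251 and 1506 bp early and 924 and 878 bp late.

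Dorsoventral genes showed both directions. Of 18 mesoderm genes 14 were kept (77.8%, against 33.3% of all genes). Of these, 7 were wider and 1 narrower, against 55.6% and 11.1% of all kept genes. The list had 2 gained genes (11.1%, against 4.04% of all genes). The microRNA gene mir-1 had late peaks of 974 and 599 bp, and the integrin gene if had 204 and 191 bp. The mesoderm list also holds bap, a homeobox gene of visceral muscle, with 565 and 914 bp early and 296 and 246 bp late, and Ilp4, an insulin-like peptide gene, with 310 and 342 bp early and 797 and 1058 bp late.

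Of 19 neuroectoderm genes 12 were kept, 2 lost and 2 gained. These were 63.2%, 10.5% and 10.5% of the list, against 33.3%, 3.45% and 4.04% of all genes. The lost genes were vnd, a homeobox gene of the ventral neuroectoderm (155 and 179 bp early), and sog, which encodes a BMP antagonist (244 and 247 bp early). The gained genes were Neu2 (403 and 393 bp late) and pnt, an ETS factor gene (685 and 173 bp late). The pnt peaks lay in a kept region only. Coverage around these genes did not follow their gene-end class. Within 2000 bp of the sog span peaks covered 2297 and 2179 bp early and 4415 and 3135 bp late. Those around pnt covered 7542 and 7040 bp early and 5944 and 5613 bp late. At vnd and Neu2 these values overlapped between windows.

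Of 23 dorsal ectoderm genes 18 were kept (78.3%, against 33.3% of all genes). Of these, 10 were wider and 1 narrower, against 55.6% and 11.1% of all kept genes. The gained share was 4.35%, near the 4.04% of all genes. The gained gene was tsg, which encodes a BMP modulator (X, 11988062 to 11988948), with 810 and 832 bp late. Both early libraries had a shorter peak inside tsg that did not reach a gene end, so its gain is the spread of a kept region. Of 20 genes of the Notch pathway and the E(spl) complex 18 were kept (90.0%), with 8 wider and 4 narrower. The Notch repressor gene H had 628 and 635 bp early and 1325 and 1325 bp late.

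**Figure D4:**
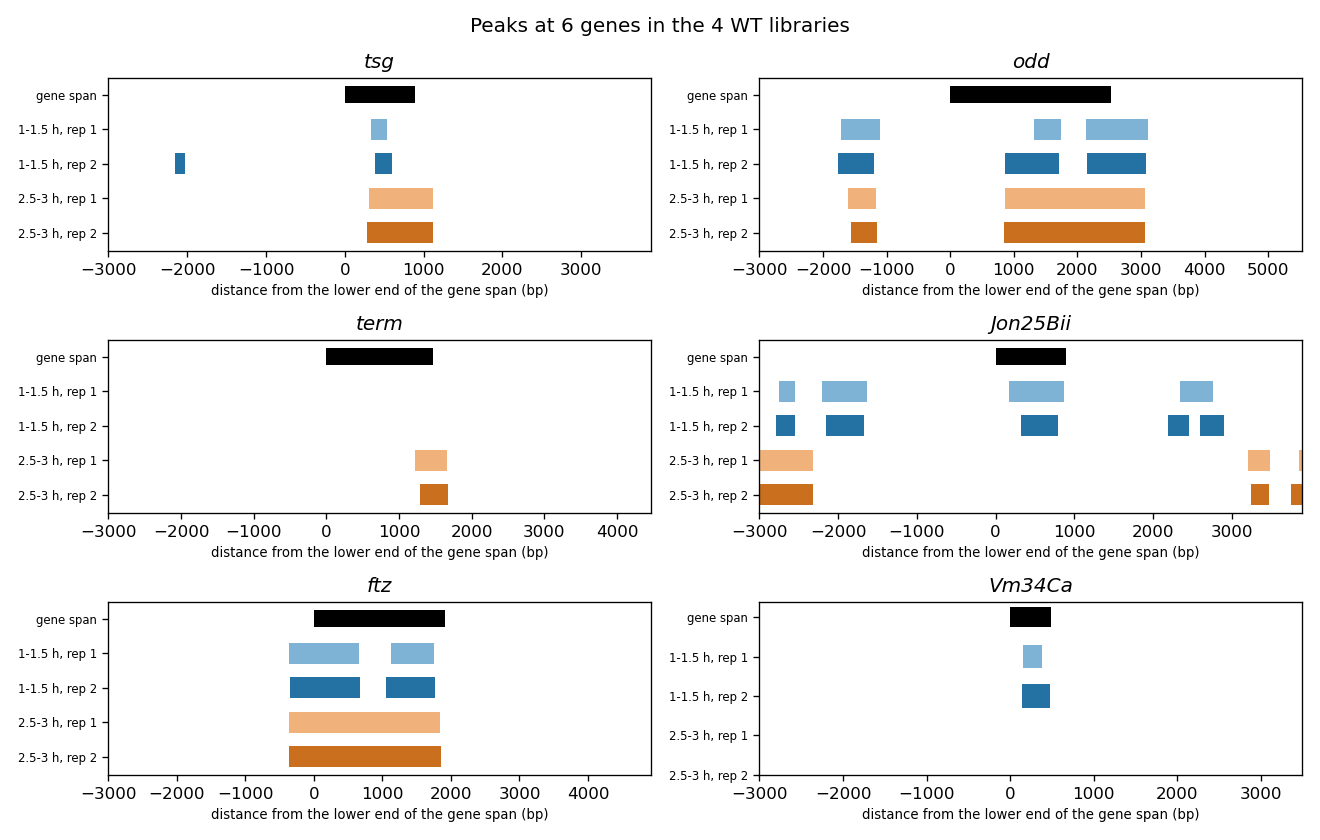
Peaks of the 4 WT libraries (rows) around 6 genes, by distance in bp from the lower end of the gene span (x axis), with the gene span in black. The genes were picked after the data were seen. Late peaks at ftz span 2 early peaks, late peaks at tsg reach beyond a shorter early peak, and peaks at Jon25Bii and Vm34Ca are in the early libraries only at the gene ends.

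Of 20 genes of pioneer factors and nucleosome remodelers 13 were kept (65.0%, against 33.3% of all genes). Of these, 9 were wider late and 1 narrower, against 55.6% and 11.1% of all kept genes. The list had 1 gained gene (5.00%, near the 4.04% of all genes). The gained gene was lola, a BTB factor gene (203 and 171 bp late). The zld gene-end peak was 364 and 354 bp early and 417 and 1015 bp late, and that of Clamp 288 and 280 bp early and 464 and 2010 bp late. Mi-2, a remodeler gene, had 442 and 442 bp early and 958 and 967 bp late, and Acf had 122 and 342 bp early and 935 and 934 bp late. Trl had no gene-end peak in any library, and peaks within 2000 bp of its span covered 3608 and 4143 bp early and 3364 and 3670 bp late, which overlapped.

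Cell cycle genes of the midblastula transition were wider late in many cases. Of 22 genes 17 were kept (77.3%, against 33.3% of all genes). Of these, 14 were wider and none narrower, against 55.6% and 11.1% of all kept genes. Peaks at trbl, whose product inhibits mitosis, were 550 and 440 bp early and 1784 and 1739 bp late. Those at lok, the Chk2 kinase gene, were 303 and 396 bp early and 1235 and 1180 bp late. Those at stg, the Cdc25 phosphatase gene, were 429 and 440 bp early and 692 and 617 bp late. The lost gene was png, which encodes a kinase of egg activation (X, 1356488 to 1357601), with 687 and 570 bp early. The lost share was 4.545%, near the 3.45% of all genes.

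Among genes of the general transcription machinery 17 of 26 were kept (65.4%, against 33.3% of all genes), with 9 wider and none narrower. Among all kept genes 55.6% were wider and 11.1% narrower. The gained genes numbered 3 (11.5%, against 4.04% of all genes). These were Taf13 (293 and 1195 bp late) and TfIIFalpha (877 and 822 bp late), both in a kept region only, and the RNA polymerase II subunit gene Polr2B (389 and 269 bp late). Of 17 insulator and boundary genes 9 were kept (52.9%), 6 wider and none narrower. The gained share was 5.88%, near the 4.04% of all genes. CTCF was gained with 299 and 273 bp late, and Chro, which encodes a chromodomain protein, had 358 and 365 bp early and 1851 and 1755 bp late.

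Of 27 genes of pausing factors and Integrator 14 were kept, 6 wider and 1 narrower. Among all kept genes 55.6% were wider and 11.1% narrower. Kept, gained and lost genes were 51.9%, 7.41% and 3.70% of the list, against 33.3%, 4.04% and 3.45% of all genes. The Integrator genes IntS9 (269 and 204 bp late) and IntS10 (205 and 273 bp late) were gained, and asun, another subunit gene, was lost (508 and 285 bp early). IntS9 encodes the partner of IntS11. The IntS11 gene itself was kept, at 514 and 323 bp early and 269 and 418 bp late.

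Of 86 ribosomal protein genes 65 were kept, 4 were lost (RpL8, RpL29, RpL32 and RpS12) and 4 were gained (RpS19b, RpL31, RpL7A and RpS19a). The lost and the gained genes were each 4.65% of the list, near the 3.45% and 4.04% of all genes. The kept genes were 75.6% of it, against 33.3% of all genes. RpS19b had 1561 and 1566 bp late, in a kept region only. Of 73 mitochondrial ribosomal protein genes 9 were gained and 1 lost, 12.3% against 4.04% of all genes for gain. The share of these genes with a gene-end peak was 69.9% and 67.1% early and 80.8% and 82.2% late. Of the 9, mRpL24, mRpS18B, mRpL23 and mRpL49 lay in a kept region only, and with a window of 500 bp the gained genes numbered 2. Of 48 proteasome genes 26 were kept (54.2%, against 33.3% of all genes) and 3 gained (6.25%, against 4.04%). The gained ones were Prosalpha7 (834 and 623 bp late), Rpt3 (760 and 1892 bp late, in a kept region only) and Rpt6 (336 and 357 bp late).

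Among small RNA genes, 22 of 274 snoRNA genes were gained (8.03%, against 4.04% of all genes) and 4 lost (1.46%, against 3.45%). SnoRNA genes lie mostly in introns of host genes, and these 22 shared 19 regions. For 9 of the 22 (40.9%) the gene-end peak lay only in a kept region. The share with a gene-end peak was 29.6% and 27.7% early and 38.3% and 36.1% late. The widest was snoRNA:Me28S-A771, at 2451 and 1567 bp late. Of 295 tRNA genes 17 were gained in 13 regions (5.76%, against 4.04% of all genes) and 9 lost (3.05%, near 3.45%). Of the 152 kept ones 102 were wider late and 11 narrower, against 55.6% and 11.1% of all kept genes. Neighbouring tRNA genes can share a peak, so the kept ones may not be separate cases. Of 32 snRNA genes 22 were kept (68.75%, against 33.3% of all genes) and snRNA:U12 was lost (141 and 144 bp early). The lost share was 3.125%, near the 3.45% of all genes. Of 111 replication-dependent histone genes 2 were kept and 1 gained. These genes occur in near-identical copies, so a peak near one copy is uncertain.

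Of 21 genes of maternal patterning 8 were kept (38.1%, near the 33.3% of all genes) and 3 were lost, where 3.45% of all genes were. Among the lost genes, dl encodes Dorsal (284 and 286 bp early), snk a protease (489 and 587 bp early) and spz the ligand of Toll (187 and 245 bp early). Of 22 heat shock genes 8 were kept (36.4%, near the 33.3% of all genes) and none was lost or gained. Peaks within 2000 bp of their spans covered less in both late libraries at 11 of them and more at 4, where 24.2% of all genes had less and 26.0% more. Neighbouring genes share peaks in such margins. CG4456 and Hsp22, for example, have the same values (647 and 607 bp early, 0 and 170 bp late), so the genes are not separate cases.

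Some cuticle, gut and egg shell genes had gene-end peaks in both early libraries and in neither late one. Of 70 cuticle protein genes 13 were lost, of 18 gut genes 5 and of 19 follicle cell genes 5, which is 18.6%, 27.8% and 26.3% against 3.45% of all genes. No gene-end peak was called in any WT library at 39 cuticle, 6 gut and 7 follicle cell genes. None of these lists had a gained gene. As background, these genes are known for their use in larval and adult tissues or in the ovary, and no RNA was measured here. Within 2000 bp of their spans, fewer covered bp late in both libraries were found at 32 cuticle, 10 gut and 12 follicle cell genes, and more at 3, 1 and 1. Over all genes 24.2% had fewer and 26.0% more. Many of these genes lie in clusters, and neighbours share peaks in these margins. For example, epsilonTry and betaTry have the same values (1188 and 592 bp early, 0 and 157 bp late). The counts are therefore not of separate peaks.

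The share of cuticle genes with a gene-end peak was 34.3% and 35.7% early and 7.14% and 7.14% late. The share of gut genes was 66.7% and 44.4% early and 16.7% and 22.2% late, and that of follicle cell genes 52.6% and 47.4% early and 10.5% and 5.26% late. The windows did not overlap in any of these shares. Leaving out a library or changing the lists or the window gave 9 to 20 lost cuticle, 4 to 7 lost gut and 4 to 8 lost follicle cell genes.

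The widths of the lost members were as follows. Cpr64Ad had 919 and 491 bp early, Cpr97Ea 400 and 461 bp, Cpr76Ba 454 and 375 bp and Cpr57A 298 and 527 bp. The gut protease genes Jon25Bii (699 and 470 bp), Jon65Ai (506 and 608 bp), Jon66Ci (330 and 497 bp), Jon25Bi and Jon65Aiv were lost. So were the vitelline membrane genes Vm26Ab (594 and 497 bp) and Vm34Ca (232 and 342 bp) and the chorion genes Cp18, Cp15 and Cp19.

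In the other marker lists 2 genes or fewer were lost. Of 18 muscle genes TpnC73F and bt were lost, of 17 neural genes Gad1 was lost and Snap25 gained, and of 20 hemocyte, fat body and yolk genes Lsp1gamma was lost, or 11.1%, 5.88% and 5.00% lost against 3.45% of all genes. Within 2000 bp of their spans, fewer covered bp late were found at 7 muscle, 7 neural and 7 hemocyte, fat body and yolk genes, and more at 0, 1 and 3. Among all genes 24.2% had fewer and 26.0% more. Of 12 germline genes pgc, which blocks transcription in pole cells, was gained (214 and 308 bp late). This was 8.33% of the list, against 4.04% of all genes. In whole embryos, fewer nuclei with an open site and less opening per nucleus cannot be told apart. The part of other cell types in the lost peaks was not tested.

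The WT classes were then followed in the mutant libraries, which the rule did not use. WT-gained regions had a peak in 21.4% and 16.7% of cases in the early mutant libraries and in 58.3% and 55.9% in the late ones. WT-lost regions had one in 39.3% and 30.0% of cases early and 26.4% and 23.6% late. WT-kept regions had one in 76.9% and 70.9% early and 88.6% and 87.9% late. Each comparison of mutant windows did not overlap (exact permutation p = 0.333, the smallest allowed, adjusted p = 0.333 over 3 tests). Among all regions the share was 43.2% and 37.1% early and 51.2% and 49.4% late. Of the WT-gained regions 581 (24.9%) were also gained in the mutant, against 8.39% of all regions, and of the WT-lost regions 320 (7.39%) were also lost there, against 2.32%.

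**Figure D5:**
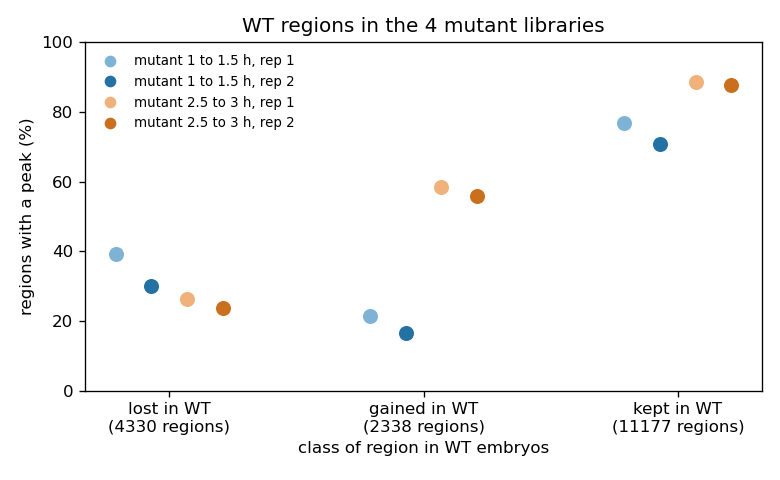
Percent of regions with a peak in each of the 4 mutant libraries (y axis), for regions lost, gained and kept in WT embryos (x axis). The late mutant points lie above the early ones for gained (58.3% and 55.9% against 21.4% and 16.7%) and kept regions, and below them for lost regions.

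The change in number of peaks went the other way in the mutant. The early mutant lists were made of shorter peaks, with shortest peaks of 100 and 101 bp, against 148 and 149 bp late, and 52.9% and 52.8% of their peaks were under 200 bp. They covered 4486 and 3712 kb, and the part of these differences in the comparison was not tested. The late mean differed from the early mean by -5787 peaks in WT and was higher by 2377.5 in the mutant, a difference of -8164.5 (exact permutation test with genotypes permuted within windows, p = 0.0556, the smallest that 36 arrangements allow, adjusted p = 0.167 over 3 tests). The median width was higher late by 88.5 bp in WT and by 147.5 bp in the mutant (exact permutation p = 0.333, adjusted p = 0.333). For covered length the late minus early difference was -5.99 kb in WT against 4093 kb in the mutant (exact permutation p = 0.333, adjusted p = 0.333).

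The shares of cuticle, follicle cell and gut genes with a gene-end peak were counted in the mutant libraries too. Of the 70 cuticle genes 15 and 10 had a gene-end peak in the early mutant libraries and 14 and 13 in the late ones. Follicle cell genes had one in 26.3% and 15.8% early and 31.6% and 21.1% late, and gut genes in 44.4% and 44.4% early and 33.3% and 16.7% late. For cuticle and follicle cell genes the mutant windows overlapped. These are counts per list, and the genes lost in WT varied. Vm26Ab had 400 and 504 bp early and 645 and 425 bp late in the mutant, while Cpr50Cb, Cpr64Ab, Cpr78Cb and Cp18 had no gene-end peak in any mutant library. Whether these marker shares changed differently in WT and mutant embryos was not tested.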

How the data were processed

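Peak lists of 8 ATAC-seq libraries were used, 4 of them WT. Per the submitters' processing notes the authors used Trimmomatic 0.39, Bowtie2 2.2.5, SAMtools 1.18, MACS2 2.2.7.1, deepTools 3.5.1 and the dm6 build. Their settings, such as a shift of reads for the transposase, were not given in the sources used here. Deposited files hold 3 columns per peak, chromosome, start and end, and each belongs to 1 library, so peaks were called per sample. Values are positions in bp, with no count or enrichment, and depth is unknown, so no interval was set. Coordinates are 1-based.

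Genes came from a RefSeq table of Release 6 (17807 genes, 13946 protein coding) without strand or transcripts. A window of 250 bp at either gene end therefore replaced the planned promoter, and promoter letters were not analysed here. Groups came from the titles. Windows were compared by exact permutation tests (two-sided) on values per library, with Benjamini-Hochberg adjustment. Region and gene classes are counts without a test.

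The members, the 30 gene lists and the rules were chosen with earlier results of these data known. Of the symbols in the lists, 12 were not matched. The symbol gk was removed from the early zygotic list after its values were seen, because it had matched a different gene by a synonym. Before this the list had 28 genes, of which 20 were kept. Coverage within 2000 bp of genes, the split of gained and lost genes by region class, the joined peaks and the genes shown in figures were added or picked after the data were seen. The rule named the 10 lost and gained regions with the widest peaks, the 10 kept regions with the largest rise and fall in width, the 6 genes with most lost and gained regions, lost or gained genes of the lists (at most 6 in each) and kept members of patterning lists with non-overlapping widths (up to 6 per list). Genes kept in other lists and those whose widths overlapped were named after their values were seen. Scripts ran in Python 3.11.15 with numpy 2.4.6, pandas 2.3.3, scipy 1.17.1 and matplotlib 3.10.9, and were tested on simulated data. Alternatives were peaks of at least 200 bp, equal list lengths, common limits of 160 bp, 100 bp of overlap, merging over 8 libraries, a gene-end window of 500 bp, the whole gene span, leaving out each library and a replicate block.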

Additional observations from a re-analysis of the deposited data

Results flagged for a closer look

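The change in number of peaks from 1 to 1.5 h to 2.5 to 3 h stood out because it ran in opposite directions in the 2 genotypes. Both late WT libraries had fewer peaks than both early ones, and both late mutant libraries had more. The lists differed in other ways too. The shortest peak was 122 and 120 bp in the early WT lists, 156 and 154 bp in the late WT lists, 100 and 101 bp in the early mutant lists and 148 and 149 bp in the late mutant lists. Peaks under 200 bp made up 29.0% and 30.2%, 13.4% and 13.2%, 52.9% and 52.8%, and 17.3% and 16.6% of these lists, in the same order. Their part in the difference was not tested. The WT change minus the mutant change was -8164.5 peaks (exact permutation test, p = 0.0556, the smallest that 36 arrangements allow, adjusted p = 0.167 over 3 tests).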

How the results depend on the processing

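Of 1991 values recomputed under the alternatives, 1567 of single genes and lists and 92 of the main comparisons kept their direction, for a difference between windows, or stayed within the tolerance, which was 1.5-fold for a count of regions or genes, 1 SD between libraries for the width at a gene and the binomial interval (Clopper-Pearson) for a share at gene ends. Regions gained minus lost, -1992 as deposited, became 300 once peaks under 200 bp were dropped and 1046 with equal list lengths, and was -120 with common limits of 160 bp, -1662 with 100 bp of overlap, -1968 when merged over 8 libraries and -5830 to -1205 leaving out 1 library. Lost regions numbered 2531 (at least 200 bp), 2493 (equal lengths) and 5127 to 9008 leaving out 1 library, and gained regions 3539 (equal lengths) and 3178 to 3922. Lost genes numbered 365 (at least 200 bp), 349 (equal lengths), 953 (500 bp), 1144 (whole span) and 782 to 1172 leaving out 1 library, and gained genes 1125 (equal lengths), 466 (500 bp), 418 (whole span) and 964 to 1190 leaving out 1 library. Kept regions joined late numbered 303 with common limits, against 548, an alternative chosen after seeing the data, and those split late 36, against 24. Narrower kept regions numbered 2495 to 2872 leaving out 1 library. Covered length, late minus early, turned to 699 kb, 869 kb and 384 kb (at least 200 bp, equal lengths, common limits) and ranged from -368 to 356 kb leaving out 1 library. Genes with a gene-end peak turned to -655 with 500 bp and ranged from -28 to 292. With 500 bp the late minus early width turned to 227.5 bp at Cpr66D, 525 bp at Lsp1gamma, -12 bp at Rpt6 and 332.5 bp at tRNA:Phe-GAA-1-7. A wider window takes in other peaks by construction, the rule asks for fewer libraries when 1 is left out, and for the rest the cause was not tested. Same-numbered libraries had a Jaccard index of 0.432 and 0.425 between windows and crossed ones 0.431 and 0.426, which is near equal, and the labels do not say whether same-numbered libraries shared a batch or day. With the replicate block, whose smallest exact permutation p is 0.5, p was 0.5 for the difference of -5787 peaks, 88.5 bp in median width, 132 genes, 6.72 points at gene ends and 0.195 points on X, and 1 for -5.99 kb in covered length. Equal list lengths give no value for the number of peaks. Position lists without depth limit every statement to called peaks, and 2 libraries in a window cannot reach 0.05 in any test used.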
